A study of Mus musculus with 8 samples.

Results

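The genes described here are 10 regulators of the passage from G1 to S phase, taken by symbol from a table of 52459 gene symbols, and all 10 were present. They are the D-type cyclins Ccnd1, Ccnd2 and Ccnd3, their kinases Cdk4 and Cdk6, the later kinase Cdk2 with its cyclin Ccne1, the inhibitors Cdkn2a and Cdkn1b, and the retinoblastoma gene Rb1. RNA was sequenced from lung tumour nodules of mice of 1 genetically engineered tumour model on a mixed strain background. There were 4 groups of 2 libraries: JQ1 with anti-PD-1 antibody (the combination), JQ1 alone, anti-PD-1 antibody alone, and vehicle. JQ1 is a small molecule that keeps BET proteins from binding acetylated histones. The antibody blocks PD-1, through which T cells are restrained. All groups carry the same tumour model, so no tumour-free or wild-type lung serves as a comparison. The labels used here do not give the age of the mice, the doses, the length of treatment or whether the libraries of a group came from separate animals.

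As background, mitogen signals raise D-type cyclins, which switch on CDK4 and CDK6, and these kinases add phosphate to the RB protein. Cyclin E with CDK2 completes that step, RB lets go of E2F factors, and E2F factors switch on genes for DNA synthesis. CDKN2A, as p16INK4a, blocks CDK4 and CDK6, and CDKN1B, known as p27, blocks CDK2. In lung tumours this pathway is a known route of growth control.

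The promoters of the 3 kinases are shown because Cdk6 is the member that passed the test, and Cdk4 and Cdk2 are the kinases it is set beside. The windows run from 250 bases before to 50 bases after the RefSeq start site on GRCm38.p6, read 5′ to 3′ on the strand of the gene. Capitals mark CACGTG, the E-box that MYC and MAX proteins bind, or an E2F motif, searched on both strands as TTTCGCGC, TTTGGCGC, TTTCCCGC or TTTGCCGC. The Cdk4 window is chr10:127063285-127063584 on the plus strand, the Cdk6 window is chr5:3343643-3343942 on the plus strand, and the Cdk2 window is chr10:128705002-128705301 on the minus strand.
Cdk4: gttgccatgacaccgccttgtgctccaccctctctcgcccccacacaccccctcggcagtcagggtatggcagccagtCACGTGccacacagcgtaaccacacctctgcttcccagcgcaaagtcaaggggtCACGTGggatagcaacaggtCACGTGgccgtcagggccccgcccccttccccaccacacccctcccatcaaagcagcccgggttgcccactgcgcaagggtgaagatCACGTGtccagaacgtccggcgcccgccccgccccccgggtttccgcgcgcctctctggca
Cdk6: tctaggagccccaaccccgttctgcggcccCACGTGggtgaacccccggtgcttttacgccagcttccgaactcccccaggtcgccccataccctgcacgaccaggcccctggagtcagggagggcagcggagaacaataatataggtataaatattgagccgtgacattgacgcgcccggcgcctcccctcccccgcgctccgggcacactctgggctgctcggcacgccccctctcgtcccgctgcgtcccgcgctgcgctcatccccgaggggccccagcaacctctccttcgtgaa
Cdk2: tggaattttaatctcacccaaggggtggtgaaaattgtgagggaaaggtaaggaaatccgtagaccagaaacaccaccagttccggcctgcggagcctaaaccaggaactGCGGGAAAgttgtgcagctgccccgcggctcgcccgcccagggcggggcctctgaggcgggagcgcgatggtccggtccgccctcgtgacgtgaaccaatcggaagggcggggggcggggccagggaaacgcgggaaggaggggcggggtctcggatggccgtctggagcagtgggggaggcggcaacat

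The Cdk4 promoter held 4 E-boxes, beginning 172, 118, 98 and 11 bases before the start site. The Cdk6 promoter held 1, beginning 220 bases before it. The Cdk6 window lies inside the GENCODE gene span, which begins further upstream than the RefSeq start. Of all 32851 promoter windows in the RefSeq table, 7.15% held at least 1 E-box and 0.0243%, or 8 windows, held 4 or more. The Cdk2 promoter held no E-box and 1 E2F motif, beginning 140 bases before the start site, a motif set found in 2.27% of all windows. RefSeq windows were matched for 7 members, 9 windows in all. The only other match was an E2F motif beginning 99 bases before 1 of the 2 start sites of Cdkn2a. These are matches of letters and not measured binding sites. Ccnd1, Ccnd2 and Rb1 were not matched.

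Libraries held between 2719816 and 15224108 counts, the lowest being combination replicate 1, and ribosomal RNA took 46.0% to 52.5% of counts in the combination, 27.7% to 35.0% with JQ1, 23.5% to 24.2% with anti-PD-1 and 21.8% to 23.7% in vehicle. By Xist and Y-linked counts, 1 library of each treated group was female and both vehicle libraries were male. The libraries within each treated group thus came from mice of different sex. For the vehicle libraries, sex does not show whether the animals were separate. Levels below (CPM) are counts relative to library size after TMM scaling, which sets aside genes with the most extreme ratios between libraries or levels. Calls are from edgeR's quasi-likelihood test on all 14085 genes with enough counts, at a Benjamini-Hochberg adjusted p under 0.05. All 10 members passed that filter. Of lung epithelial markers, Epcam, Nkx2-1 and Sftpc had counts in every library, while the 8 T and B cell markers summed to 0.349 to 3.28 CPM and none passed the filter. In bulk tissue, fewer cells of a type and less RNA per cell cannot be told apart.

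Per kilobase of annotated exon, Ccnd1 was the most abundant member in vehicle nodules, at 22.9 CPM per kb, followed by Cdk4 at 13.3, Cdkn2a at 9.24 and Cdk2 at 6.88 CPM per kb. Cdkn1b at 3.80 and Ccnd3 at 3.44 CPM per kb overlapped between the vehicle libraries, as did Cdk6 at 0.895 and Rb1 at 0.877 CPM per kb. Ccnd2 lay between these pairs at 1.15 CPM per kb, and Ccne1 was lowest at 0.269 CPM per kb. Libraries were captured with probes, so levels compared between genes also carry the yield of each gene's probes. The probes target coding regions, while annotated exons include untranslated parts, so levels per kilobase and their order also depend on the length used. Cdkn2a, with 1172 bases of annotated exon, stood at 10.8 CPM in vehicle. That is below Cdk2 at 42.8, Ccnd3 at 30.2 and Cdkn1b at 17.3 CPM.

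**Figure D1:**
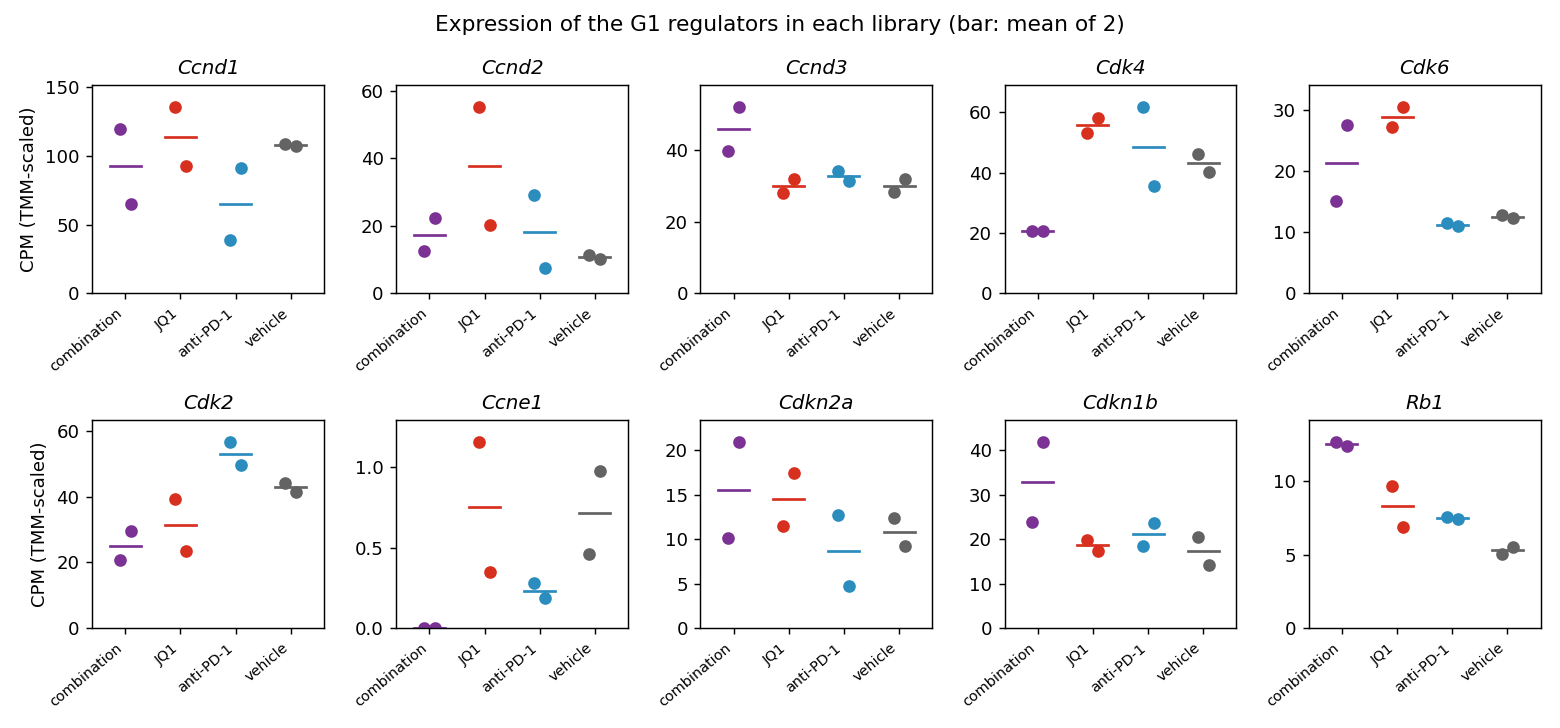
CPM of the 10 members (vertical axes, each from 0) in the 8 libraries, by group from combination to vehicle. Points are libraries and bars are means of 2. Cdk6 lies between 15.2 and 30.4 CPM in the 4 libraries with JQ1 and between 10.99 and 12.8 CPM in the 4 without, and Cdk4 is lowest in the combination.

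Cdk6, a kinase of the D-type cyclins (chromosome 5, 3341485 to 3531008, GRCm38), rose with JQ1. It stood at 15.2 and 27.5 CPM in the combination and at 27.2 and 30.4 CPM with JQ1 alone. It stood at 11.5 and 10.99 CPM with anti-PD-1 alone and at 12.8 and 12.3 CPM in vehicle. All 4 libraries with JQ1 lay above all 4 without it, while the combination and JQ1 groups overlapped. Averaged over both backgrounds, with and without the antibody, the log2 fold change for JQ1 was 1.07 (SE 0.24), a ratio of 2.10, with an adjusted p of 0.0312 in edgeR's quasi-likelihood test. Against vehicle, Cdk6 was at 0.79 (SE 0.34, adjusted p = 0.168) in the combination and at 1.20 (SE 0.34, adjusted p = 0.443) with JQ1 alone, and these did not pass. The effect of JQ1 with and without the antibody differed by −0.26 (SE 0.48, adjusted p = 0.943 for the interaction).

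The Cdk6 call rests on every library but combination replicate 1. Without that library it was at 1.24 with an adjusted p of 0.0146, and without any of the other 7 it lay between 0.80 and 1.09, with adjusted p between 0.0582 and 0.131. The value of 0.80 is that without combination replicate 2. The sum of airway epithelium markers, in which Scgb1a1 and Muc5b are the largest terms by group mean, was higher with JQ1 too. All 5 were detected in every library, and they summed to 289 to 580 CPM in the combination, 168 to 460 CPM with JQ1, 52.2 to 119 CPM with anti-PD-1 and 11.8 to 35.1 CPM in vehicle. All 5 had a positive log2 fold change for JQ1 over both backgrounds. In JQ1 replicate 2, however, Cyp2f2 at 0.61 CPM lay below both vehicle libraries, at 5.35 and 3.21 CPM. Endothelial markers, all 6 detected in every library, summed to 113 to 119, 79.5 to 117, 80.5 to 90.2 and 49.2 to 72.5 CPM in the same groups. Scgb1a1 of the airway markers, and Cldn5 and Pecam1 of the endothelial ones, rose for JQ1 over both backgrounds, and the others were not called.

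Fibroblast and smooth muscle markers, all 7 detected in every library, did not move one way. Col1a1 and Acta2 fell for JQ1 over both backgrounds, by 1.45 and 1.66 on the log2 scale (adjusted p = 0.0107 and 0.0208), Pdgfra rose by 1.18 (adjusted p = 0.0458), and 3 of the 7 were positive. Their sum, in which Col1a1 is the largest term, was 474 to 512 CPM in the combination, 740 to 842 CPM with JQ1, 1127 to 1821 CPM with anti-PD-1 and 1240 to 1518 CPM in vehicle. Of 7 lung tumour epithelium markers, all detected in every library, 3 rose for JQ1 over both backgrounds, Cdh1 by 0.84, Epcam by 0.98 and Napsa by 1.10, and Nkx2-1 fell by 1.08 (adjusted p from 0.0302 to 0.0431). They summed to 3714 to 4789 CPM in the combination, 2453 to 3955 CPM with JQ1, 4211 to 4212 CPM with anti-PD-1 and 3688 to 5450 CPM in vehicle. With ribosomal RNA symbols left out of the counts, Cdk6 was still called for JQ1 over both backgrounds. The part of these marker lists in the Cdk6 difference, and that of the ribosomal RNA share as it differed between libraries, was not tested.

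Cdk6 was the only member called by edgeR in any of the 7 contrasts. That is 1 of 10 members for JQ1 over both backgrounds, where 8.28% of all tested genes were called, so the share is near the background. An unadjusted p under 0.05 was reached there by 3 members and by 31.7% of tested genes. DESeq2 called 2, Cdk2 and Cdk6, with 18.3% of genes called among those it gave an adjusted p (its genes). Likewise 1 member, Cdk6, had all libraries with JQ1 above all without, where 10.2% of tested genes did, and 1, Cdk2, had them all below, where 9.35% did.

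In the combination against vehicle 0 members were called by edgeR, with 4.80% of tested genes called, and DESeq2 called 1, Cdk4, with 14.2% of its genes called. In the combination against anti-PD-1 edgeR called 0 members and 4.23% of tested genes, and DESeq2 called 2 members, Cdk2 and Cdk4, and 13.7% of its genes. There, 3 members and 27.0% of tested genes had an unadjusted p under 0.05. Against JQ1, edgeR called 0 members and 0.0213% of tested genes, DESeq2 called 1 member, Cdk4, and 3.36% of its genes, and 4 members and 14.1% of tested genes had an unadjusted p under 0.05.

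For JQ1 alone against vehicle edgeR called 0 members and 0% of tested genes, with 2 members and 10.1% of tested genes at an unadjusted p under 0.05. For anti-PD-1 alone these were 0 and 0%, with 0 members and 1.97% of tested genes at that p, and for the interaction 0 and 0%, with 1 member and 6.25%. DESeq2 called 0 members in each of these, and 0.568%, 0.0969% and 0.233% of its genes.

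Cdk4, the other kinase of the D-type cyclins (chromosome 10, 127063534 to 127067920), was lowest in the combination. It stood at 20.6 and 20.6 CPM in the combination and at 53.2 and 58.1 CPM with JQ1 alone. It stood at 61.6 and 35.6 CPM with anti-PD-1 and at 46.3 and 40.3 CPM in vehicle. Both combination libraries lay below all 6 others, and with JQ1 alone both libraries lay above both vehicle libraries. The log2 fold change of the combination was −1.07 (SE 0.32, adjusted p = 0.0719) against vehicle, −1.43 (SE 0.32, adjusted p = 0.1253) against JQ1 and −1.24 (SE 0.32, adjusted p = 0.0552) against anti-PD-1. None passed in edgeR, while DESeq2 called all 3, with adjusted p of 0.0284, 0.00953 and 0.0101. JQ1 alone was at 0.36 (SE 0.30) against vehicle. The interaction was at −1.60 (SE 0.44), with an unadjusted p of 0.00411 and an adjusted p of 0.745. The counts behind the combination levels were 49 and 125. Exons of Tspan31 on the opposite strand cover 19.7% of the annotated Cdk4 exons, and the sources used here do not say whether reads were counted by strand.

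Cdk2, the kinase of cyclins E and A (chromosome 10, 128697939 to 128705031), was lower with JQ1 but did not pass. It stood at 20.6 and 29.5 CPM in the combination, at 39.2 and 23.6 CPM with JQ1, at 56.6 and 49.5 CPM with anti-PD-1 and at 44.2 and 41.4 CPM in vehicle. All 4 libraries with JQ1 lay below all 4 without. The log2 fold change for JQ1 over both backgrounds was −0.76 (SE 0.23), with an adjusted p of 0.0626 in edgeR and 0.021 in DESeq2. Against anti-PD-1 the combination was at −1.07 (SE 0.33, adjusted p = 0.0799), and against vehicle at −0.76 (SE 0.32, adjusted p = 0.166).

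Within a library, the ratio of 2 genes does not depend on scaling. Cdk6 had 0.735 and 1.34 reads per Cdk4 read in the combination, 0.511 and 0.524 with JQ1, 0.187 and 0.309 with anti-PD-1, and 0.276 and 0.305 in vehicle. Per kilobase, Cdk6 made up 14.6% and 23.7% of the sum of Cdk4 and Cdk6 in the combination, 10.6% and 10.9% with JQ1, 4.16% and 6.69% with anti-PD-1, and 6.02% and 6.61% in vehicle. The size of this share depends on the annotated exon lengths, 13989 bases for Cdk6 and 3249 for Cdk4, which include untranslated parts. Against Cdk2, Cdk6 had 0.735 and 0.933 reads per read in the combination, 0.693 and 1.29 with JQ1, 0.204 and 0.222 with anti-PD-1, and 0.288 and 0.297 in vehicle. For both ratios the 4 libraries with JQ1 lay above the 4 without. The ratios were chosen after the values of their genes were seen and are given as description.

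**Figure D2:**
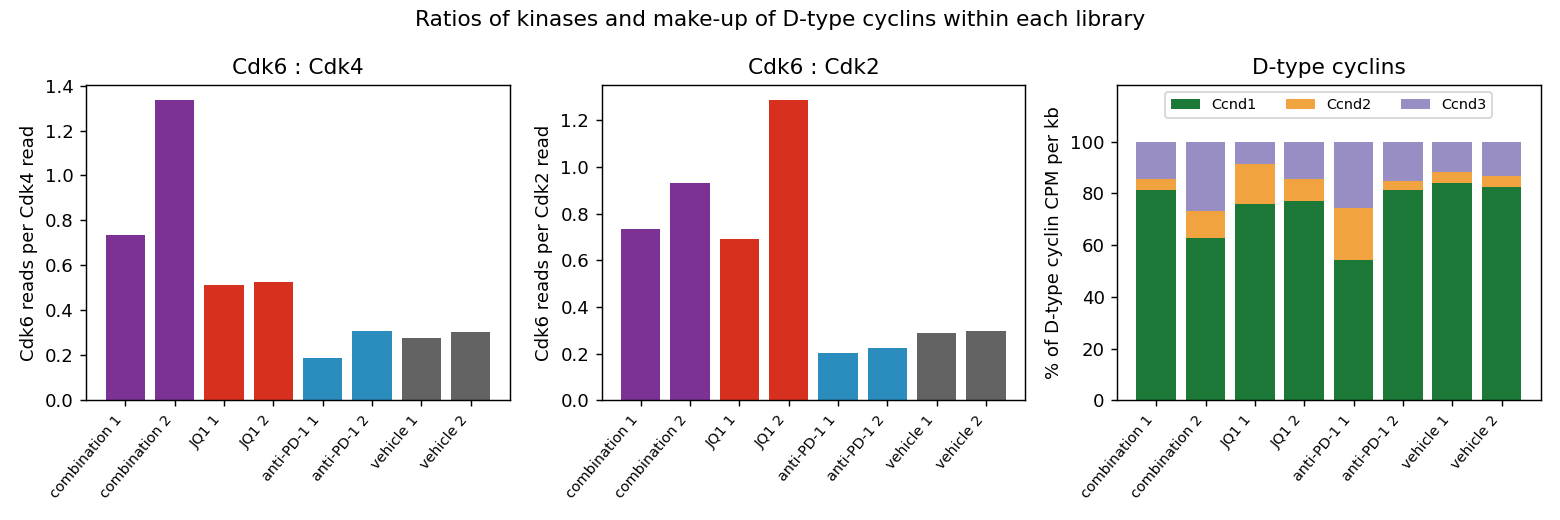
Reads of Cdk6 per read of Cdk4 (left) and of Cdk2 (middle), and the share of each D-type cyclin in their summed CPM per kb (right), for each library from combination to vehicle. The Cdk6 to Cdk4 ratio is 0.511 or more in the 4 libraries with JQ1 and 0.309 or less in the 4 without, and Ccnd1 holds the largest share of D-type cyclin in all 8.

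Ccnd1, a D-type cyclin that growth factor signalling raises (chromosome 7, 144929931 to 144939925), differed little between group means against its spread. It stood at 120.0 and 65.4 CPM in the combination, at 135 and 92.5 CPM with JQ1, at 38.9 and 90.9 CPM with anti-PD-1 and at 109 and 107 CPM in vehicle. Libraries of every treated group were spread widely, while the vehicle libraries lay close together. Both anti-PD-1 libraries lay below both vehicle libraries, at a log2 fold change of −0.73 (SE 0.42, adjusted p = 1). Against vehicle, the combination was at −0.23 (SE 0.42, adjusted p = 0.756) and JQ1 at 0.08 (SE 0.42, adjusted p = 0.953). Exons of LTO1 on the opposite strand cover 23.4% of the annotated Ccnd1 exons.

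Ccnd2, a D-type cyclin (chromosome 6, 127125162 to 127152193), varied most among the members with counts in every library. It stood at 12.6 and 22.2 CPM in the combination, at 55.1 and 20.3 CPM with JQ1, at 29.0 and 7.61 CPM with anti-PD-1 and at 11.4 and 10.3 CPM in vehicle. Both JQ1 libraries and both combination libraries lay above both vehicle libraries, and the anti-PD-1 libraries lay on either side of them. JQ1 against vehicle was at 1.79 (SE 0.65, adjusted p = 0.452), and its libraries lay far apart.

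Ccnd3, the remaining D-type cyclin (chromosome 17, 47505051 to 47599691), was highest in the combination, at 39.98 and 52.1 CPM. It stood at 28.2 and 32.1 CPM with JQ1, at 34.2 and 31.4 CPM with anti-PD-1 and at 28.3 and 32.1 CPM in vehicle. Both combination libraries lay above all 6 others, yet the log2 fold change of 0.61 (SE 0.28) against vehicle did not pass, with an adjusted p of 0.18.

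As shares of the D-type cyclins per kilobase, Ccnd1 held 81.2% and 62.6% in the combination, 76.0% and 77.2% with JQ1, 54.2% and 81.5% with anti-PD-1, and 83.9% and 82.7% in vehicle. Ccnd2 held 4.28% and 10.7% in the combination, 15.5% and 8.48% with JQ1, 20.2% and 3.41% with anti-PD-1, and 4.397% and 3.99% in vehicle. The share of Ccnd1 was lowest in anti-PD-1 replicate 1 and next lowest in combination replicate 2. The groups of treated libraries overlapped in the Ccnd1 share, and all 6 treated libraries lay below both vehicle libraries.

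Ccne1, the cyclin of CDK2 (chromosome 7, 38097984 to 38107534), was near the floor. It had 0 counts in both combination libraries, 11 and 4 with JQ1, 4 and 2 with anti-PD-1, and 6 and 17 in vehicle. Against a floor of 3 counts over both combination libraries, its pooled level was 2.12 times the floor in vehicle, at 0.754 CPM. With JQ1 the pooled level was 2.01 times the floor. These folds hold for pooled counts only and carry no error of the other group. JQ1 replicate 2 alone, at 0.349 CPM, lay under the floor, and vehicle replicate 1 stood at 0.458 CPM. With anti-PD-1 its pooled level of 0.240 CPM was under that floor of 0.355 CPM, so no fold is given. The adjusted p of the combination against vehicle was 0.149.

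Cdkn2a, which encodes p16INK4a and p19ARF from separate first exons (chromosome 4, 89274471 to 89294653), was counted as 1 gene, so the transcripts cannot be told apart. It stood at 10.1 and 20.9 CPM in the combination, at 11.5 and 17.4 CPM with JQ1, at 12.7 and 4.70 CPM with anti-PD-1 and at 12.4 and 9.29 CPM in vehicle. The groups overlapped throughout, and its log2 fold changes against vehicle were 0.55 (SE 0.52), 0.42 (SE 0.51) and −0.31 (SE 0.51) in the combination, JQ1 and anti-PD-1 groups.

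Cdkn1b, which encodes p27 (chromosome 6, 134920401 to 134925513), was highest in the combination, at 24.0 and 41.9 CPM. It stood at 19.9 and 17.4 CPM with JQ1, at 18.6 and 23.8 CPM with anti-PD-1 and at 20.5 and 14.2 CPM in vehicle. Both combination libraries lay above all 6 others, though 1 of them lay close to the higher anti-PD-1 library. The log2 fold change against vehicle was 0.94 (SE 0.36), with an adjusted p of 0.127.

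Rb1, the retinoblastoma gene (chromosome 14, 73183673 to 73325822), stood at 12.6 and 12.4 CPM in the combination and at 9.65 and 6.89 CPM with JQ1. It stood at 7.54 and 7.42 CPM with anti-PD-1 and at 5.04 and 5.51 CPM in vehicle. Both combination libraries lay above all 6 others, and all 6 treated libraries lay above both vehicle libraries. The log2 fold change of the combination against vehicle was 1.24 (SE 0.36), the largest among members with counts on both sides, with an adjusted p of 0.0689. Its counts were low, from 30 to 108 a library and 625 in all. Exons of Rcbtb2, with 831 counts, and of Lpar6, with 162, lie on the opposite strand and cover 8.11% and 6.78% of the annotated Rb1 exons.

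Across the members, 5 had both combination libraries above both vehicle libraries, where 29.5% of tested genes did, and 3 had them below, where 29.1% did. No such share over all tested genes was computed for both combination libraries against all others, or for all treated libraries against vehicle. Those separations are therefore given as description. An unadjusted p under 0.05 in the combination against vehicle was reached by 7 of 10 members and by 27.3% of tested genes. Ccne1 is among these 7 and among the 3 below. It had 0 counts in both combination libraries and passed the filter on its counts in other groups, so its place in both counts carries no weight. The median log2 fold change of the members in that contrast was 0.58, against 0.07 over all tested genes. For JQ1 alone the medians were 0.24 and 0.07, and for anti-PD-1 alone 0.14 and −0.0004. With Ccne1 at its floor in the combination the first of these medians is the same. The 3 contrasts share the vehicle libraries.

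**Figure D3:**
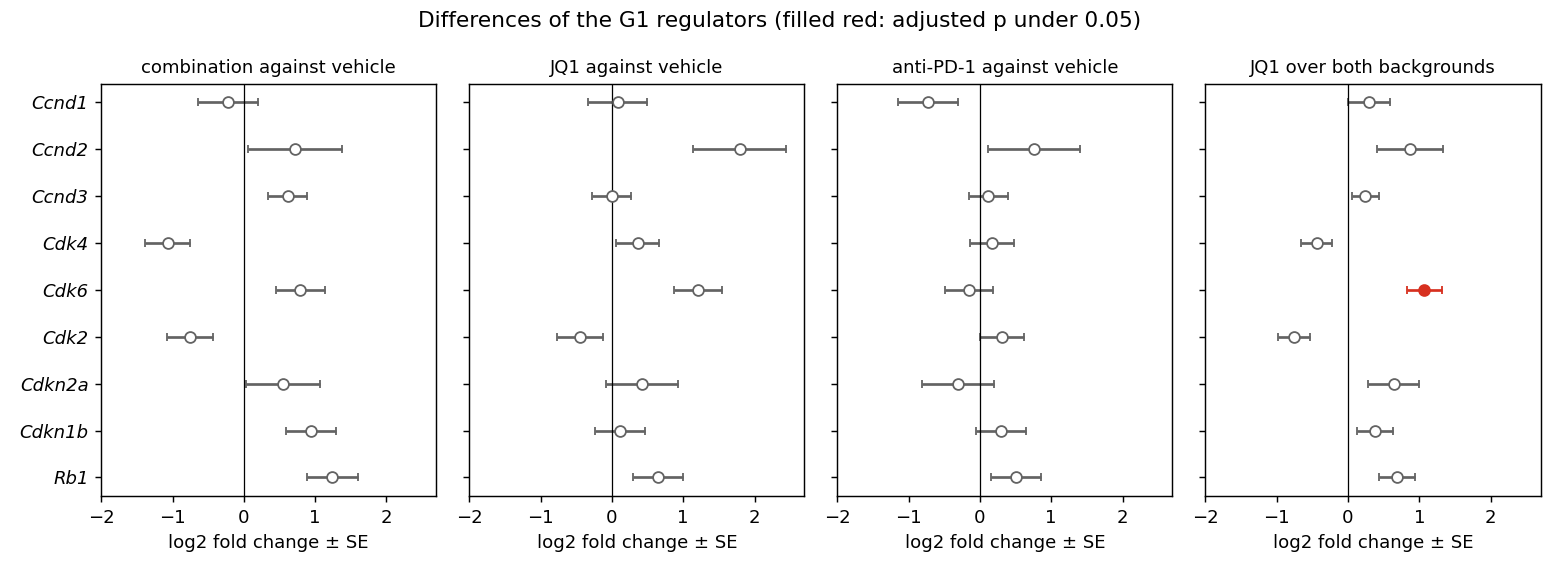
Log2 fold change with its standard error (horizontal axes) of 9 members in 4 contrasts, with 0 marked by a line. Ccne1, at 0 counts in the combination, is left out. Cdk6 for JQ1 over both backgrounds, at 1.07, is the only filled point, and Cdk4 stands at −1.07 in the combination against vehicle and at 0.36 with JQ1 alone.

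Among the other genes of the pathway, few were called by edgeR and all of them fell. The shares to set beside them are the 4.80% of all tested genes called in the combination against vehicle and the 8.28% called for JQ1 over both backgrounds. In the combination, 1 of 18 E2F target genes and 1 of 15 other G1/S genes lie close to that share. The 1 of 9 mitosis genes lies above it, on a single gene. For JQ1 over both backgrounds these lists had 1, 0 and 1 called. Of 18 tested E2F target genes of S phase entry, 1 fell and 0 rose in the combination against vehicle: Mcm2, a subunit of the replicative helicase, at 3.79 and 4.61 CPM in the combination, against 28.9 and 29.0 CPM in vehicle. Its log2 fold change was −2.76 (SE 0.45, adjusted p = 0.021), and it fell for JQ1 over both backgrounds too, by 1.15 on the log2 scale (SE 0.30, adjusted p = 0.0433). With JQ1 alone Mcm2 stood at 42.6 and 17.7 CPM, on either side of vehicle. The list had a median of −1.03 in the combination, and 4 of the 18 were positive, the furthest being Cdt1 at 1.49 (adjusted p = 0.133). Its summed level, in which Mcm4 is the largest term, was 91.0 to 112 CPM in the combination, 171 to 318 CPM with JQ1, 158 to 296 CPM with anti-PD-1 and 211 to 249.3 CPM in vehicle. The combination lay below every other group.

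Of 9 tested mitosis genes, 1 fell in the combination and for JQ1 over both backgrounds: Plk1, the polo-like kinase, with 3 counts in the combination and 139 in vehicle. The vehicle level was 12.8 times that of the combination (95% counting interval 4.30 to 62.9, counting error only), with adjusted p in edgeR of 0.0309 and, over both backgrounds, 0.022. Their median in the combination was −1.75, and they summed to 11.4 to 32.6 CPM in the combination, 35.0 to 73.0 CPM with JQ1, 48.2 to 104 CPM with anti-PD-1 and 71.1 to 81.8 CPM in vehicle. Combination replicate 1, the shallowest library, had 0 counts for 5 of the 11 genes in the table.

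Of 15 tested genes of other G1/S cyclins, kinases and turnover, 1 fell in the combination: Ambra1, which directs the breakdown of D-type cyclins, at 88.0 and 74.0 CPM, against 162 and 187 CPM in vehicle. Its log2 fold change was −1.11 (SE 0.26, adjusted p = 0.0411), and it was at −0.62 (SE 0.18, adjusted p = 0.0576) for JQ1 over both backgrounds. Leaving out 1 library ended the combination call of Mcm2 for combination replicate 2 and each vehicle library (adjusted p 0.0939 to 0.117), and that of Plk1 for the same 3 (0.14 to 0.184). That of Ambra1 ended for these and for either anti-PD-1 library (0.061 to 0.241). For JQ1 over both backgrounds the Mcm2 call was kept in 1 and the Plk1 call in 4 of 8 such fits.

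No gene of the 12 pocket protein and E2F genes was called. E2f1, an activator of S phase genes, had 2 counts in the combination and 76 in vehicle, a vehicle level 10.5 times that of the combination (95% counting interval 2.81 to 88.4), with an adjusted p of 0.0503. Rbl2, the RB relative p130, stood at 44.2 and 61.3 CPM in the combination, against 31.9 and 26.2 CPM in vehicle (log2 fold change 0.87, adjusted p = 0.108). E2f4, a mostly repressive E2F factor, stood at 26.5 and 22.6 CPM in the combination, against 38.0 and 46.4 CPM in vehicle (−0.79, adjusted p = 0.121). The list median was −0.78 in the combination.

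None of 4 tested other CDK inhibitors was called. Cdkn1a, which encodes p21, stood at 4.63 and 70.0 CPM in the combination, against 5.42 and 4.82 CPM in vehicle, so 1 library carried its log2 fold change of 2.90 (SE 0.94, adjusted p = 0.102). Cdkn2b, which encodes p15, stood at 5.89 and 11.2 CPM in the combination, against 4.12 and 2.98 CPM in vehicle (1.31, adjusted p = 0.134). Cdkn1c, which encodes p57, stood at 8.42 and 8.24 CPM in the combination, against 7.03 and 4.48 CPM in vehicle (0.54, adjusted p = 0.491).

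**Figure D4:**
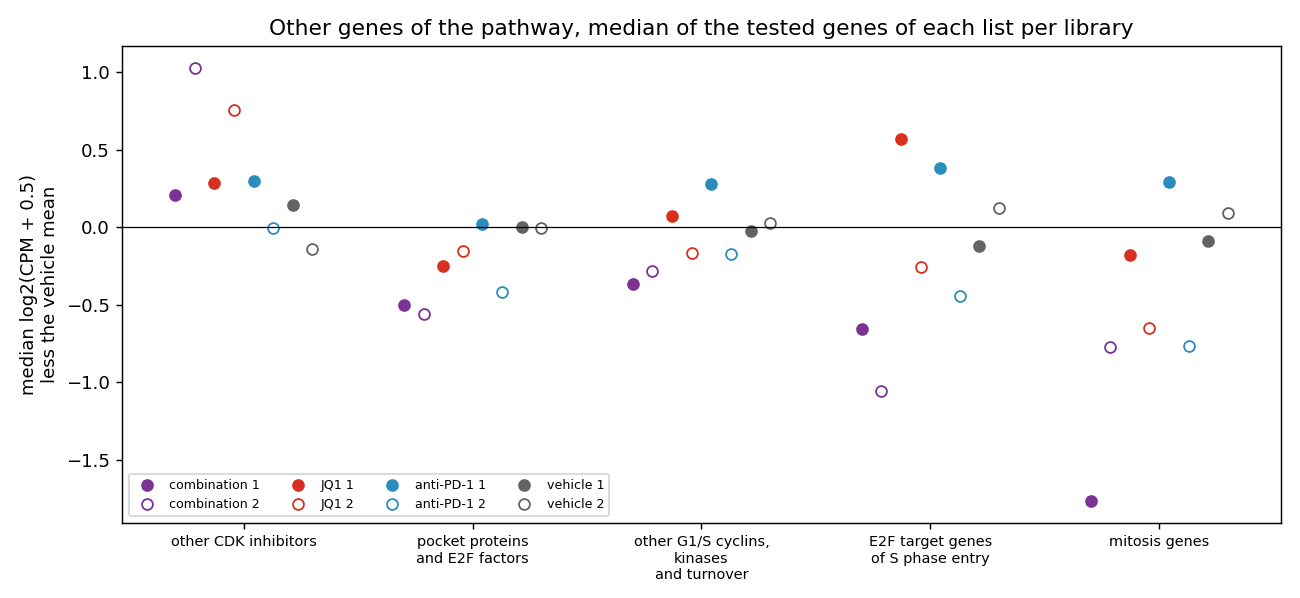
For each library, the median difference of log2(CPM + 0.5) from the vehicle mean (vertical axis), over the tested genes of each pathway list. Filled points are replicate 1 and open points replicate 2 of each group. For E2F target genes the combination libraries stand at −0.66 and −1.05, below the 6 others.

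Genes with profiles most like those of the 3 members with the widest range of group means were found over the 8 libraries, by the mean absolute difference of centred log2(CPM + 0.5). Closest to Cdk6 were Atpif1, an inhibitor of the mitochondrial ATP synthase, at 0.11, Cox15 at 0.14 and Ascc1 at 0.14. Closest to Cdk4 were the decapping enzyme Dcps at 0.13, the annexin Anxa2 at 0.15 and the helicase Ascc3 at 0.16. Closest to Ccnd2 were the receptor kinase Mst1r at 0.25, the complement gene C1qa at 0.26 and Tmem86a at 0.26. Dcps stood at 1.68 and 2.47 CPM in the combination, against 5.27 and 4.76 CPM in vehicle, and Atpif1 at 11.8 and 18.8 CPM, against 12.9 and 10.4 CPM.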

How the data were processed

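Per the labels' protocols, RNA from frozen tissue was made into libraries with a kit that captures coding regions by probes. Submitters' processing notes name bcl2fastq, STAR, featureCounts and DESeq2 and the builds mm10 and GRCm38, with no versions. The deposited raw table holds counts of reads per gene symbol. The deposited normalized table holds a signal, the counts divided by 1 factor per library. Multiplied back, 99.989% or more of its nonzero values were whole within 0.05 reads, and the main test on them called 676 genes in the combination against vehicle.

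Libraries were grouped by treatment label and numbered in accession order, and p-values measure the spread between them, part of which may be technical. No identical libraries were found. Counts of 14085 symbols passing filterByExpr were tested with edgeR 4.0.16 in R 4.3.3 (TMM, robust quasi-likelihood fit of all 8 libraries, a mean per group, 4 residual degrees of freedom, prior count 0.125). Each of 7 contrasts had its own Benjamini-Hochberg adjustment. The SE given with a log2 fold change is its size divided by the square root of the F statistic of the quasi-likelihood test. The fit was also run on simulated counts with the same spread for all genes and planted changes larger than those of most members. That run does not show how well changes of the size seen here are found. Alternatives used DESeq2 1.42.0, limma 3.58.1, other scaling and filters, ribosomal RNA left out, a sex term from Xist and Y-linked counts, and left-out libraries. Gene models are GENCODE vM21 (GRCm38), and intervals and floors cover counting error only.

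Members and lists were chosen with earlier results of these data known. Named were all members, each list gene called in the combination against vehicle or for JQ1 over both backgrounds, or else the 3 of smallest p in the combination, and the 3 most alike genes of 3 members.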

Additional observations from a re-analysis of the deposited data

How the results depend on the processing

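The count of members called, 1 for JQ1 over both backgrounds and 0 in the other 6 contrasts, changed under some settings. For JQ1 over both backgrounds it was 3 with no filter on low counts (Ccnd2, Cdk2, Cdk6), 2 with DESeq2 and 2 with limma trend (Cdk2, Cdk6), and 0 to 1 with a library left out. In the combination against vehicle it was 1 with no filter (Cdk4), 1 with DESeq2 (Cdk4) and 1 with a mean count of at least 50 (Rb1). Against JQ1 it was 1 with no filter and 1 with DESeq2 (Cdk4). Against anti-PD-1 it was 2 with no filter and 2 with DESeq2 (Cdk2, Cdk4), 1 with RLE factors and 1 with limma trend (Cdk4), and 0 to 1 with a library left out. For JQ1 against vehicle it was 1 with no filter (Ccnd2). The cause was not tested.

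The direction of Cdk6 for JQ1 over both backgrounds held in all 18 alternatives, and the call in 11. These alternatives, and the recomputed values below, include the fit on counts multiplied back from the normalized table. Those counts equal the raw ones, so that fit repeats the main fit and had to give the same values. Over the members, 994 of the recomputed values kept direction and side of the threshold and 33 turned direction, none of them called. For JQ1 against vehicle these were Ccnd3 at 0.095 with upper-quartile factors, 0.10 with a mean count of at least 50 and 0.11 with a sex term, Ccnd1 at −0.38 with a sex term, and Ccne1 at −0.00809 with RLE, −0.17 with voom, −0.081 with trend and −0.46 with a sex term. For anti-PD-1 against vehicle, Cdk6 was at 0.024 and Cdkn2a at 0.049 with a sex term. For the combination against anti-PD-1, Ccnd2 was at 0.00503 with upper-quartile factors, 0.078 with a mean count of at least 50, 0.22 with voom, 0.10 with trend and 0.00846 with a sex term. With a library left out, ranges crossing 0 were, for the combination against vehicle, −0.73 to 0.13 for Ccnd1 and −0.13 to 0.95 for Cdkn2a. For JQ1 against vehicle they were −0.23 to 0.32 for Ccnd1, −0.11 to 0.085 for Ccnd3, −1.04 to 0.67 for Ccne1 and −0.14 to 0.39 for Cdkn1b. For anti-PD-1 they were −0.51 to 1.42 for Ccnd2, −0.28 to 0.51 for Cdk4 and −1.20 to 0.23 for Cdkn2a. Against JQ1 the combination ranged from −0.80 to 0.049 for Ccnd1, −0.64 to 0.089 for Cdk2 and −0.54 to 0.53 for Cdkn2a, and against anti-PD-1 from −0.000476 to 1.22 for Ccnd1 and −0.72 to 1.20 for Ccnd2. Over all genes, the combination against vehicle called 676 genes, 245 with its own libraries alone, 339 with a sex term, 1992 with no filter and 1652 with DESeq2. It called 1115 without combination replicate 1, 15 without combination replicate 2, 308 and 291 without an anti-PD-1 library, and 19 and 7 without a vehicle library. JQ1 over both backgrounds called 1166 genes, and 17 to 1716 with a library left out. Depth limits Ccne1 and other genes near the floor. No paired analysis was possible because the labels give no replicate numbers.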
